A study of Mus musculus with 10 samples.

Results

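The genes described here are 10 components of cytokine signalling in granulocyte-macrophage progenitors (GMPs): the kinases Jak1, Jak2 and Tyk2, the transcription factors Stat3, Stat5a and Stat5b, and the feedback inhibitors Socs1, Socs2, Socs3 and Cish. They were chosen by name, among 51717 genes with summed reads, and 9 of them were among the 12381 genes with enough reads for a test. Socs3 fell under the count filter, with 4 to 38 reads a sample. RNA was sequenced from CD45.2+ GMPs, sorted from the bone marrow of male mice on the C57Bl6/N background. The mice were chimeras, in which irradiated CD45.1 recipients had received mixed donor marrow. WT donor cells were ROSA26 CreER+/-, and Mpc2 KO donor cells were Mpc2fl/fl; ROSA26 CreER+/-. All mice ate tamoxifen chow for 2 wk and were taken at its end, so both groups carried CreER and received tamoxifen. This KO is called recent, because no recovery time followed the chow. CreER was expressed from the ROSA26 locus, which is active in most cell types and not in GMPs alone, and the age of the mice was not given in the sources used here. Each group had 5 samples. A WT sample was 1 mouse, whereas a recent Mpc2 KO sample combined the cells of 2 mice, and the spread between KO samples was a spread between pools.

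Cytokine receptors of this family have no kinase activity of their own. Ligand binding brings their bound Janus kinases (JAKs) together, the kinases phosphorylate the receptor and the STAT proteins that dock on it, and paired STATs enter the nucleus and bind DNA. In myeloid progenitors the receptors for G-CSF, GM-CSF, IL-3 and IL-6 signal in this way, mainly through JAK1, JAK2, STAT3 and STAT5. SOCS proteins and CIS (the product of Cish) are made in response and block the kinase or the receptor. Their mRNAs are induced by STATs and decay quickly, and for this reason Socs1, Socs2, Socs3 and Cish were read here as a transcript-level readout of ongoing signalling. The phosphorylation of JAKs and STATs is not seen in RNA. The question was whether any of these genes differed in GMPs soon after loss of Mpc2, a subunit of the carrier that brings pyruvate into mitochondria.

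STAT dimers bind the palindrome TTCNNNGAA, which reads the same on both strands. RefSeq promoter windows of GRCm38.p6, from 250 bases before to 50 bases after a start site, were held for 9 of the 10 genes, in 11 windows, and not for Socs2. The motif was found in 2 of the 9 genes, Cish and Socs3, both of them feedback genes. Socs1, also a feedback gene with a window, had no match. Of all 32851 windows, 8.30% (2726 windows) held the motif. That is a share of windows, and a count of genes with 1 or more windows each does not compare with it directly. Cish held 2 copies, and 0.457% of all windows (150 windows) held 2 or more. The stretches with the motif are shown because these genes serve as the readout, with the fixed bases of the motif in capitals. Positions are counted from the RefSeq start site.
Cish, chr9:107296654-107296683, + strand, bases -5 to 25: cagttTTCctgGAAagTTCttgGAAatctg
Socs3, chr11:117969502-117969531, - strand, bases -165 to -136: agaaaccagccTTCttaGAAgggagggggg
The Cish copies began at bases 1 and 12, in the 5′ UTR within exon 1 of Cish-201 in the GENCODE M21 annotation. The Socs3 copy began at base -154, within the transcript Socs3-202 and upstream of the RefSeq start. These matches describe letters in a window and say nothing of binding in these cells, and no match in the other windows says nothing about STATs there.

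The targeted gene followed the labels. Mpc2 (chr1:165460637-165481214, M21 on GRCm38) was at 61.0, 111, 95.2, 117 and 60.9 normalized CPM in WT samples 1 to 5 and at 27.7, 17.1, 43.9, 37.0 and 35.0 normalized CPM in recent Mpc2 KO samples 1 to 5. CPM are estimated reads scaled to an equal library total, with library sizes adjusted by TMM. Every KO sample lay below every WT sample, with a fold of 0.363 (95% interval 0.254 to 0.518; edgeR quasi-likelihood test, adjusted p = 0.0156; exact permutation p = 0.00794, the smallest that 5 samples against 5 allow). CreER deletes exon 3, and reads from the rest of the gene still counted. This call was lost in several alternatives, with an adjusted p of 0.0577 to 0.401 among those that kept all samples, and the direction held in all of them. Among all genes tested, 41 passed an adjusted p of 0.05, which is 0.331% of them, 15 higher (0.121%) and 26 lower (0.210%) in recent Mpc2 KO GMPs. Scaled by library size alone, 26 were higher and 20 lower. Total estimated reads ranged from 14133706 to 19745405 in WT samples and from 14033776 to 19658346 in KO samples. A count of 3 reads corresponded to 0.147 to 0.233 normalized CPM, and both this floor and the counting errors given below cover counting error only, since the cDNA was amplified and its reads carried no molecular identifiers.

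None of the 9 tested genes passed the threshold of an adjusted p of 0.05, in either direction. None of them had an unadjusted p under 0.05 in this fit either, against 10.2% of all genes tested, and in none of the 10 genes were the CPM of the groups without overlap, against 2.43% of all genes tested. DESeq2 also called 0 of them, against 1.09% of the genes it tested. In other fits 5 of the 10 genes had an unadjusted p under 0.05, Stat5a in 6 of 21 alternatives (0.0151 to 0.0489), Jak1 in 4 and Jak2 in 2 of 21. Socs1 was among them in 1 of 18 alternatives and Socs3 in 1 of 11, a fit that Socs3 entered only through KO samples. The share of all genes with such a p in some alternative is not given here, so this count has no background beside it. The lowest adjusted p of any of the 10 genes was 0.250 (edgeR, Stat5a without KO sample 2). Of the 9 fold changes, 6 were above and 3 below 1, with a median log2 fold change of 0.10, beside -0.0018 over all genes tested. In bulk RNA, fewer cells of a type and less RNA per cell cannot be told apart, which holds for each value below. The labels call the samples biological replicates. The p-values set the difference between the groups against the spread between samples, which were single mice in WT and pools of 2 mice in KO.

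**Figure D1:**
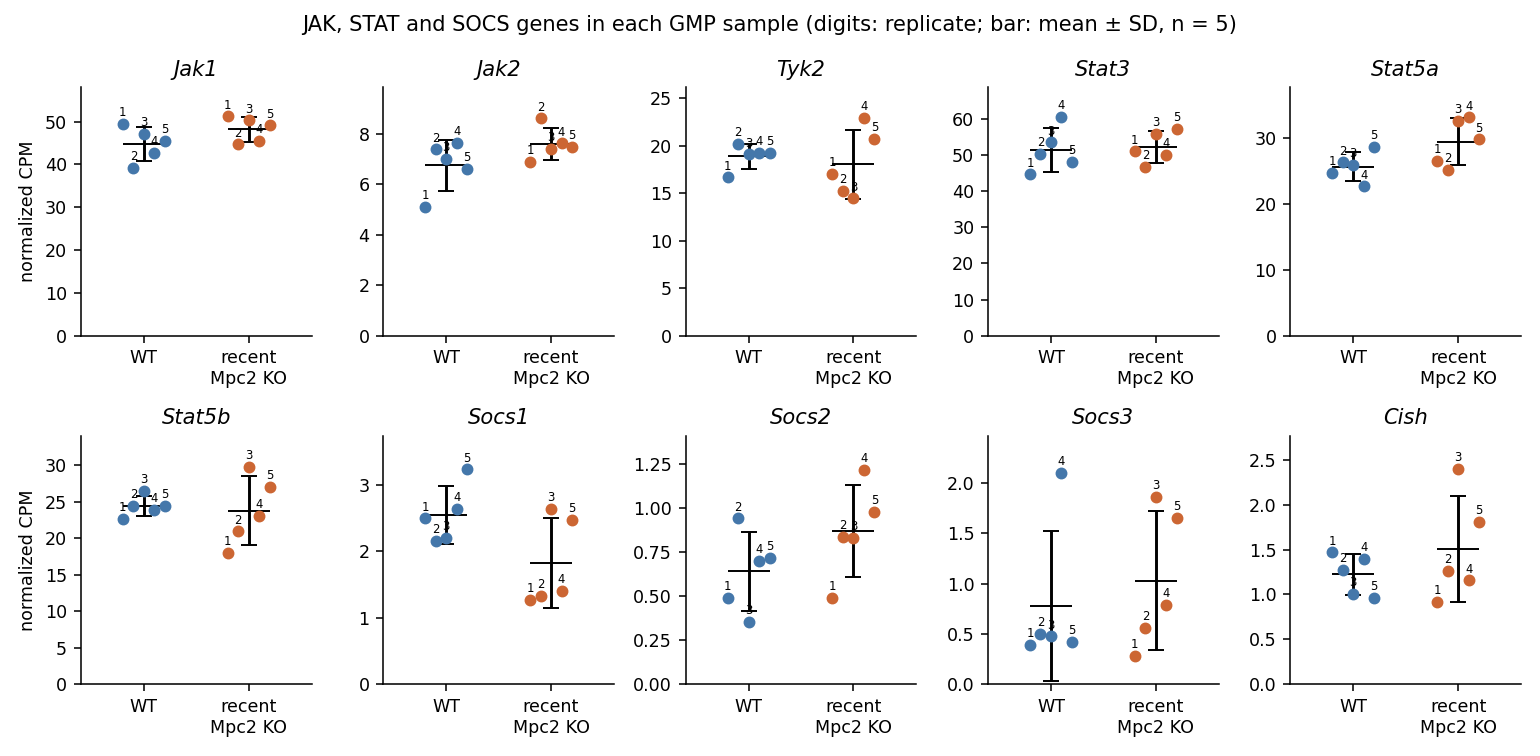
Normalized CPM of the 10 genes in each sample (digits give the replicate; crosses with caps, mean ± SD, n = 5 WT and 5 recent Mpc2 KO samples; each vertical axis starts at 0). The groups overlap in every panel, and the 4 feedback genes lie below 3.3 CPM in every sample.

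Levels between genes were compared per transcript length, as TPM (read levels per transcript length, scaled to an equal total) summed over the transcripts of a gene. In WT GMPs, Stat3 was the most abundant, at 11.2 ± 1.64 TPM (mean ± SD, n = 5), followed by Jak1 at 7.87 ± 1.28 TPM and Stat5a at 6.44 ± 0.978 TPM. The WT ranges of neighbours in this order overlapped, so Stat3 and Jak1, or Jak1 and Stat5a, were not separated beyond their spread. Tyk2 at 4.46 ± 0.507 TPM and Stat5b at 3.83 ± 0.222 TPM formed the next step, and every WT value of Stat5a lay above every WT value of Tyk2 (lowest 5.33 against highest 5.27 TPM). Jak2 at 1.07 ± 0.122 TPM and Socs1 at 0.753 ± 0.151 TPM overlapped each other and lay wholly below Stat5b. Cish at 0.587 ± 0.517 TPM, Socs2 at 0.261 ± 0.0593 TPM and Socs3 at 0.254 ± 0.228 TPM were the least abundant. Among the genes detected in WT GMPs, mean TPM placed Stat3 at percentile 81.9 and Jak2 at percentile 59.9, whereas Socs2 and Socs3 stood at percentiles 46.8 and 46.5. Any estimated read in any WT sample counted as detection here, so the detected genes include those under the count filter, such as Socs3. The kinase JAK2 is the partner of the erythropoietin, thrombopoietin and GM-CSF receptors, yet its mRNA level per length was below those of Jak1 and Tyk2 in every WT sample. Jak3 was not compared in this way. The wide spread of Cish came from WT sample 4, at 1.503 TPM against 0.282 to 0.466 TPM in the other WT samples. In that sample alone, reads were assigned to the transcript Cish-205 (11.1% of the Cish reads), and its Cish read level of 1.40 CPM lay inside the range of the other WT samples.

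**Figure D2:**
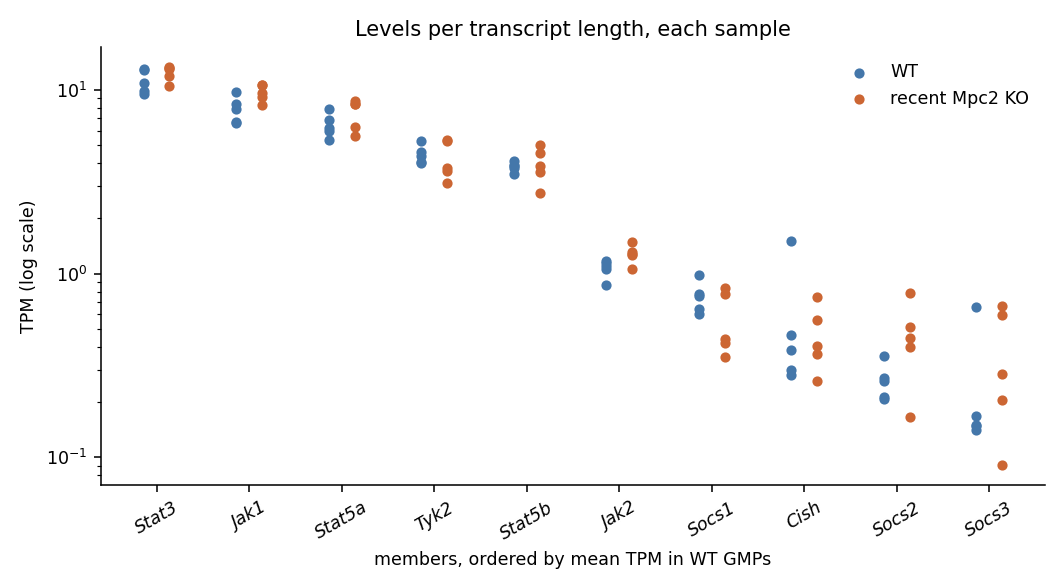
TPM per gene and sample on a log scale, with genes ordered by mean WT level (blue, 5 WT samples; orange, 5 recent Mpc2 KO samples). Stat3, Jak1 and Stat5a lie above 5 TPM in all samples, and the 4 feedback genes lie below 2 TPM in all samples.

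None of the JAK mRNAs passed the test. Jak1 (chr4:101152367-101265282), the kinase of the gp130 and interferon receptors, was at 49.5, 39.3, 47.1, 42.7 and 45.5 CPM in WT samples 1 to 5 and at 51.2, 44.7, 50.3, 45.4 and 49.1 CPM in recent Mpc2 KO samples 1 to 5. The fold was 1.07 (95% interval 0.960 to 1.20; log2 fold change 0.10, SE 0.08; edgeR adjusted p = 0.708; exact permutation p = 0.190), with WT samples at 39.3 to 49.5 CPM and KO samples at 44.7 to 51.2 CPM. On the log2 scale its interval was the narrowest of the 9. Where transcript lengths entered the fit, the log2 fold change of Jak1 was larger, at 0.23 with a length offset in edgeR (unadjusted p = 0.0317, adjusted p = 0.467) and 0.27 to 0.30 in limma on log2 TPM (lowest unadjusted p = 0.0292, adjusted p of 0.504 or more). Jak2 (chr19:29251828-29313080) was at 5.09, 7.38, 7.01, 7.62 and 6.59 CPM in WT and at 6.89, 8.60, 7.38, 7.61 and 7.47 CPM in KO samples. WT sample 1 was the lowest of all and KO sample 2 the highest. The fold of Jak2 was 1.13 (95% interval 0.932 to 1.37; edgeR adjusted p = 0.711; exact permutation p = 0.159). Tyk2 (chr9:21104068-21131243), which serves interferon and IL-12 family receptors, was at 16.7, 20.2, 19.1, 19.3 and 19.3 CPM in WT and at 17.0, 15.2, 14.5, 23.0 and 20.7 CPM in KO samples. The 5 KO values straddled the WT values, with 2 above all of them and 2 below all of them, and the fold was 0.956 (95% interval 0.796 to 1.15; edgeR adjusted p = 0.908; exact permutation p = 0.627). The coefficient of variation of Tyk2 was 6.996% among WT and 20.1% among KO samples, where counting alone gives 5.59% and 5.71%. Summed, the 3 JAKs came to 70.5 ± 2.37 CPM in WT and 73.8 ± 3.51 CPM in KO GMPs (SD, n = 5 each). Tyk2 shares exon bases with an antisense gene and Jak1 with Raver2 on the other strand, and no source used here says that the libraries kept the strand, so reads from these overlaps cannot be told apart.

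No STAT passed the test, and Stat5a had the smallest edgeR p-value of the 9 genes tested. Stat3 (chr11:100885098-100939540), the transducer of G-CSF and IL-6 signals in granulocyte progenitors, was at 44.6, 50.4, 53.6, 60.6 and 48.1 CPM in WT samples 1 to 5 and at 51.0, 46.6, 55.9, 49.98 and 57.3 CPM in KO samples 1 to 5. All KO values lay inside the WT range, and the fold was 1.02 (95% interval 0.891 to 1.16; edgeR adjusted p = 0.958; exact permutation p = 0.841). Stat5a (chr11:100859351-100885169), one of the paired STAT5 genes that relay GM-CSF and IL-3 signals, was at 24.7, 26.3, 26.01, 22.7 and 28.7 CPM in WT and at 26.5, 25.2, 32.7, 33.2 and 29.8 CPM in KO samples. KO samples 3, 4 and 5 exceeded every WT sample, while samples 1 and 2 lay within the WT range. The fold was 1.15 (95% interval 0.999 to 1.32; log2 fold change 0.20, SE 0.09; edgeR unadjusted p = 0.0512, adjusted p = 0.491; exact permutation p = 0.0714). Stat5b (chr11:100780731-100850724), its close paralog, was at 22.6, 24.5, 26.4, 23.9 and 24.4 CPM in WT and at 18, 20.9, 29.8, 23.0 and 27.01 CPM in KO samples. Its KO values spread on both sides of the WT values, with a coefficient of variation of 19.8% against 5.65% in WT and 4.92% from counting alone. The fold of Stat5b was 0.978 (95% interval 0.820 to 1.17; edgeR adjusted p = 0.956; exact permutation p = 0.786). Stat5a made up 51.3 ± 2.13% of the summed Stat5a and Stat5b CPM in WT and 55.6 ± 3.49% in KO samples, and the sum was 50.1 ± 2.98 CPM in WT and 53.2 ± 7.63 CPM in KO samples. The transcripts of these paralogs are 90.9% identical over 2332 aligned bases, so Salmon may have divided some reads between them, and their sum does not depend on that division. Stat3 and Stat5a also overlap at their 3′ ends on opposite strands, over 72 bases of identical sequence.

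The feedback genes were low in both groups, and none passed the test. Socs1 (chr16:10782240-10785536), which binds and inhibits JAKs downstream of interferon and other receptors, was at 2.496, 2.16, 2.20, 2.64 and 3.23 CPM in WT samples 1 to 5 and at 1.27, 1.33, 2.64, 1.40 and 2.47 CPM in recent Mpc2 KO samples 1 to 5. KO samples 1, 2 and 4 lay below every WT sample, and KO samples 3 and 5 lay within the WT range. The fold was 0.726 (95% interval 0.493 to 1.07; log2 fold change -0.46, SE 0.26; edgeR unadjusted p = 0.0975, adjusted p = 0.580; exact permutation p = 0.0873). Socs2 (chr10:95385362-95417180), the feedback inhibitor of growth hormone receptor signalling and a STAT5 target, was at 0.489, 0.943, 0.356, 0.700 and 0.718 CPM in WT and at 0.492, 0.839, 0.831, 1.22 and 0.979 CPM in KO samples. With 6 to 20 reads a sample its counting error alone was 30.4% in WT and 25.8% in KO samples, close to the spread between samples of 35.3% and 30.2%. The fold of Socs2 was 1.37 (95% interval 0.818 to 2.29; edgeR adjusted p = 0.728; exact permutation p = 0.151), an interval that includes both lower and higher levels. Near copies of Socs2 elsewhere in the annotation (Gm9847 and Gm8000) held at most 0.0470 CPM on average in a group.

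Cish (chr9:107296026-107302784), a STAT5-induced inhibitor of receptors that use STAT5, was at 1.47, 1.28, 1.01, 1.40 and 0.958 CPM in WT samples 1 to 5 and at 0.914, 1.26, 2.39, 1.16 and 1.80 CPM in KO samples 1 to 5. KO samples 3 and 5 exceeded every WT sample, and KO sample 1 was the lowest of all 10. The fold was 1.25 (95% interval 0.803 to 1.94; log2 fold change 0.32, SE 0.30; edgeR adjusted p = 0.795; exact permutation p = 0.397). Cish shares exon bases with Gm17040 and Gm17041 on the other strand, and both were assigned a mean of 0 CPM in each group. Reads from these overlaps cannot be told apart by strand. Socs3 (chr11:117966079-117970047), the inhibitor of gp130 and G-CSF receptor signalling that STAT3 induces, was at 0.392, 0.499, 0.475, 2.10 and 0.419 CPM in WT and at 0.281, 0.559, 1.86, 0.791 and 1.65 CPM in KO samples. WT sample 4 stood apart from the other WT samples, and it was the highest of all 10. The exact permutation p for Socs3 was 0.659, with a mean of 0.777 ± 0.740 CPM in WT and 1.03 ± 0.690 CPM in KO GMPs (SD, n = 5 each). Without a filter on low counts, Socs3 had a log2 fold change of 0.49 (SE 0.49; edgeR adjusted p = 0.696). Without WT sample 4, Socs3 passed the filter only through KO samples, so its higher KO values were a condition of its being tested. Its log2 fold change in that fit, 1.23 (SE 0.51; edgeR unadjusted p = 0.0308, adjusted p = 0.562), is given as a description. Over the 8 leave-out fits that tested Socs3, its log2 fold change was 0.33 to 1.23. KO samples 3 and 5 also stood above the other KO samples. The fit without KO sample 3 and the fit without KO sample 5 did not test Socs3.

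The summed CPM of the 4 feedback genes did not separate the groups. The sum was 4.85, 4.88, 4.04, 6.84 and 5.33 CPM in WT samples 1 to 5 (mean 5.19 ± 1.03, SD) and 2.95, 3.99, 7.72, 4.57 and 6.91 CPM in recent Mpc2 KO samples 1 to 5 (mean 5.23 ± 2.01, SD). The means were nearly equal, and the spread was wider in the KO group, which held the 2 lowest and the 2 highest of the 10 sums. KO samples 3 and 5 also had the highest 2 values of the KO group for Stat3, Stat5b, Socs1, Socs3 and Cish. These were the 2 most deeply sequenced KO libraries, at 19658346 and 18751870 estimated reads. Erythroid and megakaryocyte markers (14 genes) summed to 331 and 230 CPM in these samples and to 263 CPM in KO sample 4, against 89.3 to 94.4 CPM in KO samples 1 and 2 and 58.4 to 110 CPM in WT samples. Immediate-early genes (18 genes), which respond to stimuli and to cell handling within minutes, summed to 787 CPM in WT sample 4, the highest of all 10 samples and the one with the high Socs3. They summed to 415 to 674 CPM in the other WT samples and to 391, 438, 664, 658 and 572 CPM in KO samples 1 to 5. The part of depth, of other cells or of handling in the Socs and Cish values was not tested.

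**Figure D3:**
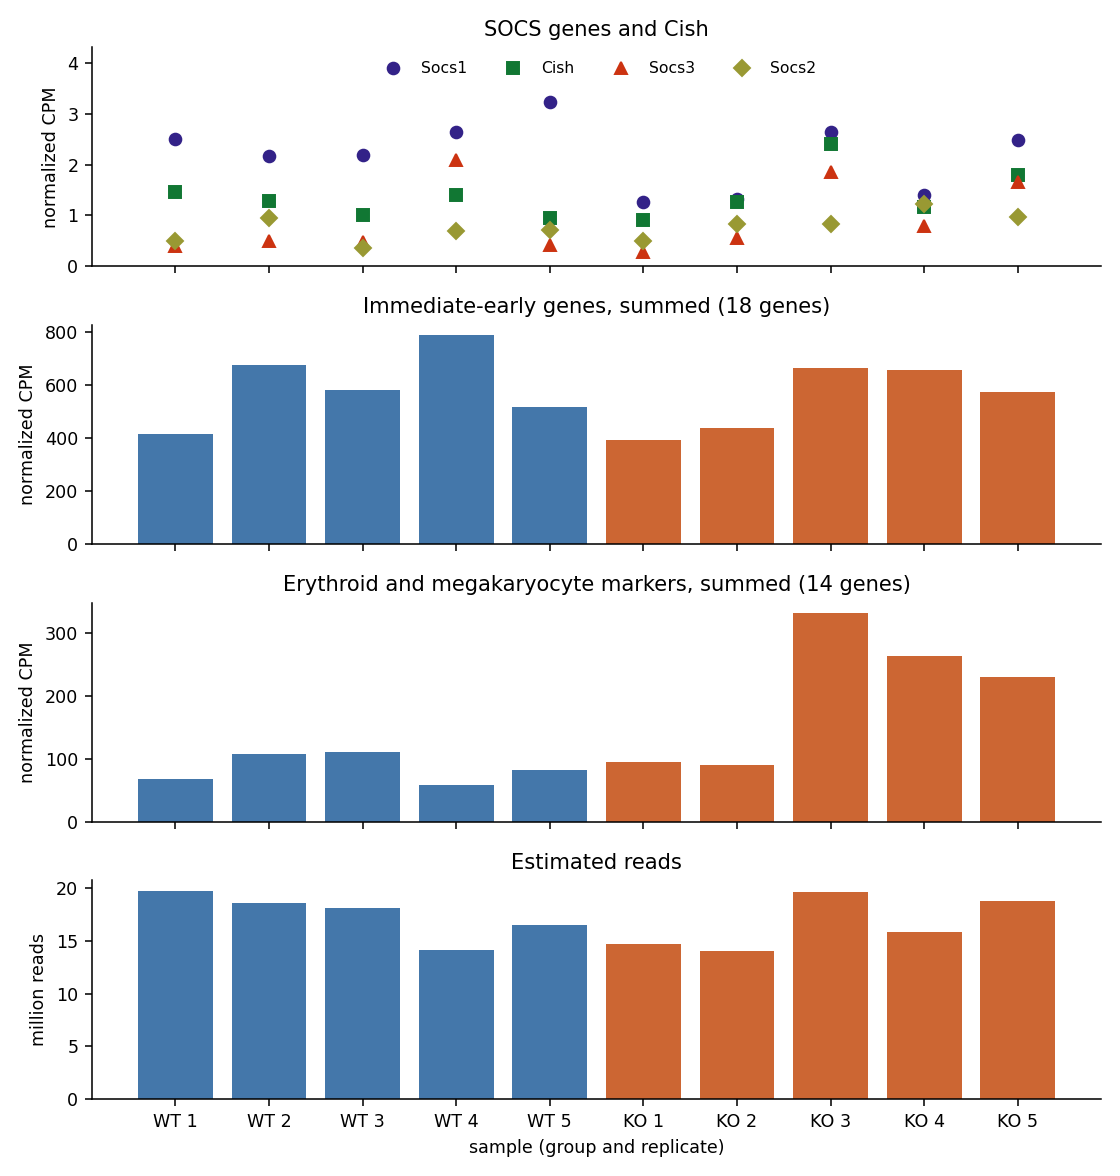
From top to bottom, for each of the 10 samples: normalized CPM of Socs1, Cish, Socs3 and Socs2, summed CPM of 18 immediate-early genes, summed CPM of 14 erythroid and megakaryocyte markers, and total estimated reads. KO samples 3 and 5 hold the highest Socs1, Socs3 and Cish of the KO group, and WT sample 4 holds both the highest Socs3 and the highest immediate-early sum.

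**Figure D4:**
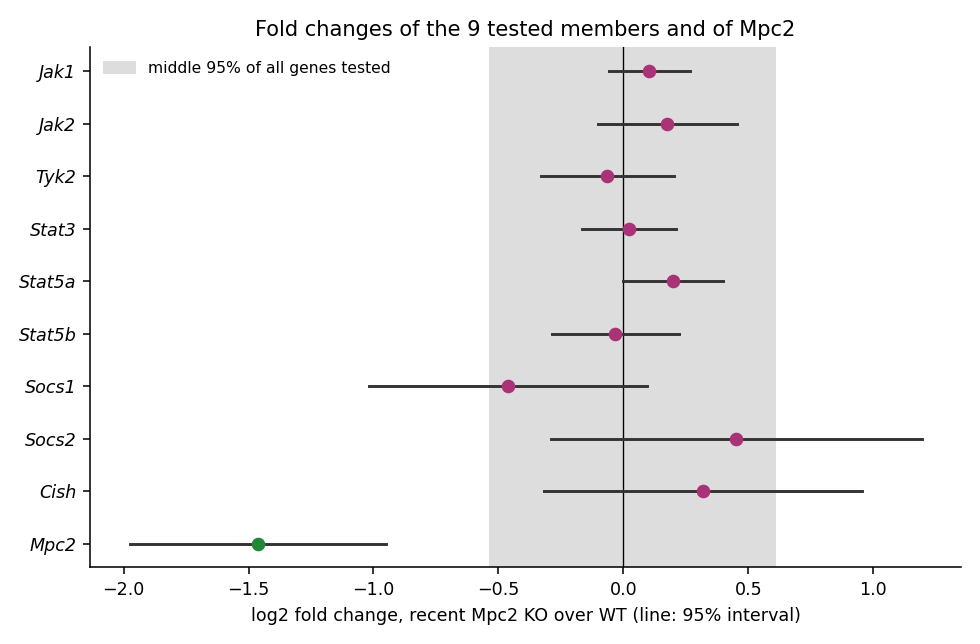
Log2 fold changes of the 9 tested genes and of Mpc2 (points, with 95% intervals as lines; recent Mpc2 KO over WT, 5 samples each), over the middle 95% of all genes tested (grey, -0.53 to 0.61). The intervals of all 9 genes include 0, and they are wider for the low-count genes Socs1, Socs2 and Cish than for the JAKs and STATs.

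Single transcripts were tested as well, because a gene total can hide a shift between transcripts. The 10 genes had 66 annotated transcripts, of which 42 held reads and 17 were tested. None passed an adjusted p of 0.05, against 0.0420% of the 26185 transcripts tested in all, and 2 had an unadjusted p under 0.05, against 6.15% of all. Both were transcripts of Stat5a. Stat5a-202, which took 77.4% to 97.2% of the Stat5a reads of a sample, was at 24.5, 22.9, 20.2, 18.6 and 23.9 CPM in WT samples 1 to 5 and at 25.9, 24.8, 31.5, 32.2 and 28.6 CPM in KO samples 1 to 5. All KO samples lay above all WT samples, by a narrow margin between WT sample 1 and KO sample 2, and this was the only one of the 17 without overlap, against 1.55% of all transcripts tested. Its log2 fold change was 0.38 (SE 0.11; edgeR unadjusted p = 0.00510, adjusted p = 0.618). Stat5a-203 was at 0, 1.76, 4.64, 2.23 and 3.18 CPM in WT and at 0 CPM in 4 KO samples and 0.647 CPM in KO sample 3 (edgeR unadjusted p = 0.0159, adjusted p = 0.694). It took 9.10% of the Stat5a reads in WT and 0.389% in KO GMPs on average. Salmon divided the reads of Stat5a between these transcripts by estimate, so their values are not independent of each other. Stat5b-201 and Stat5b-202 divided the Stat5b reads unevenly from sample to sample, with 26.7% to 92.6% assigned to Stat5b-201, and neither passed the test (edgeR adjusted p = 0.959 and 0.939). The reads of Jak1, Jak2 and Socs3 went almost wholly to Jak1-201 (98.6% to 99.9%), Jak2-202 (100%) and Socs3-201 (100%).

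Other genes of the pathway, in lists of 9 to 33 genes, held no call in any list. Of 9 other family members, such as Jak3, Stat6 and Socs4 to Socs7, all were tested and 0 had an unadjusted p under 0.05. Their median log2 fold change was 0.01. Socs5 had a log2 fold change of 0.36 (SE 0.25; edgeR adjusted p = 0.688), and Socs4 one of -0.12 (SE 0.12; edgeR adjusted p = 0.811). Among 25 modulators of the pathway, which include the phosphatases and adaptors of JAKs and receptors, 23 were tested and 1 had an unadjusted p under 0.05 (4.35%), beside 10.2% of all genes tested. That gene was Sh2b2, an adaptor that binds JAK2 and KIT, at 13.2 to 14.6 CPM in WT and 10.2 to 14.1 CPM in KO samples (log2 fold change -0.22, SE 0.10; edgeR adjusted p = 0.451). Gab2, an adaptor that recruits the phosphatase SHP2, had a log2 fold change of 0.34 (SE 0.17; edgeR adjusted p = 0.512). Ptpn6, which encodes the phosphatase SHP1, had a log2 fold change of -0.14 (SE 0.07; edgeR adjusted p = 0.528).

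Of 33 receptor genes that use JAKs, 23 were tested, 0 were called and 4 had an unadjusted p under 0.05 (17.4%, beside 10.2% of all genes tested), 2 higher and 2 lower in recent Mpc2 KO GMPs. Il2rb, the signalling chain shared by the IL-2 and IL-15 receptors, was at 0.147, 0.499, 0.119, 0 and 0.419 CPM in WT samples 1 to 5 and at 0.633, 1.05, 1.27, 0.609 and 0.979 CPM in KO samples 1 to 5. It passed the filter on low counts only through the KO samples, with a mean of 10 reads a sample, so its higher KO values are a condition of its being tested and are given as a description (log2 fold change 1.87, SE 0.52; edgeR adjusted p = 0.211). Csf2ra, the specific chain of the GM-CSF receptor, was at 72.9, 85.5, 95.2, 110 and 77.0 CPM in WT and at 73.1, 90.4, 47.2, 61.9 and 59.6 CPM in KO samples. KO samples 3, 4 and 5 lay below every WT sample (log2 fold change -0.41, SE 0.15; edgeR adjusted p = 0.372). Il27ra, the specific chain of the IL-27 receptor, had a log2 fold change of 0.82 (SE 0.38; edgeR adjusted p = 0.478). Il6ra, the specific chain of the IL-6 receptor, which was named after its values were seen, was the other gene on the lower side (log2 fold change -0.34, SE 0.16; edgeR adjusted p = 0.478).

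Among 28 genes known as STAT5 or STAT3 targets other than the feedback genes, 26 were tested and 0 were called. Of these, 6 had an unadjusted p under 0.05 (23.1%, beside 10.2% of all genes tested), 3 in each direction. Myc, a driver of growth and division, was at 261, 232, 263, 277 and 235 CPM in WT samples 1 to 5 and at 256, 291, 323, 299 and 291 CPM in KO samples 1 to 5. KO samples 2 to 5 exceeded every WT sample (log2 fold change 0.20, SE 0.07; edgeR adjusted p = 0.328). Xbp1, a transcription factor of the secretory stress response, was at 170, 169, 165, 248 and 157 CPM in WT and at 125, 134, 131, 146 and 159 CPM in KO samples (log2 fold change -0.39, SE 0.11; edgeR adjusted p = 0.226). WT sample 4 was the highest, and KO sample 5 alone reached the WT range. Cebpd, a C/EBP factor induced by STAT3, had a log2 fold change of -0.32 (SE 0.12; edgeR adjusted p = 0.374). The other genes under an unadjusted p of 0.05, named after their values were seen, were the kinase gene Pim2 (log2 fold change 0.43, SE 0.16), the survival gene Bcl2l1 (0.31, SE 0.13) and the factor Cebpb (-0.41, SE 0.17). The median over the 26 genes was 0.04.

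Of 29 interferon-responsive genes, 27 were tested, 0 were called and 2 had an unadjusted p under 0.05 (7.41%), both lower in KO GMPs. Irf8, a factor of the monocyte and dendritic lineages, was at 158, 120, 148, 116 and 140.3 CPM in WT samples 1 to 5 and at 105, 137, 53.6, 82.4 and 89.1 CPM in KO samples 1 to 5. All KO samples but the second lay below every WT sample (log2 fold change -0.55, SE 0.18; edgeR adjusted p = 0.302). Ifih1, a sensor of viral RNA, had a log2 fold change of -0.36 (SE 0.16; edgeR adjusted p = 0.458). Bst2, an antiviral membrane protein, was at 148 to 185 CPM in WT and 106 to 175 CPM in KO samples (log2 fold change -0.14, SE 0.11; edgeR adjusted p = 0.744). Without a filter on low counts, Xbp1 and Irf8 passed the threshold (edgeR adjusted p = 0.0260 and 0.0157), as the only 2 genes of these lists to do so. Of the 18 immediate-early genes, 15 were tested, 0 were called, and 1 had an unadjusted p under 0.05 (6.67%). This was Klf6 (log2 fold change -0.37, SE 0.14; edgeR adjusted p = 0.366), and Klf2 (-0.69, SE 0.35) and Btg2 (-0.50, SE 0.26) followed it with edgeR adjusted p-values of 0.529 and 0.535. Over these 6 lists together, without the 10 genes described above, 138 genes were listed, 120 were tested and 14 had an unadjusted p under 0.05 (11.7%), beside 10.2% of all genes tested, 5 of them higher and 9 lower.

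**Figure D5:**
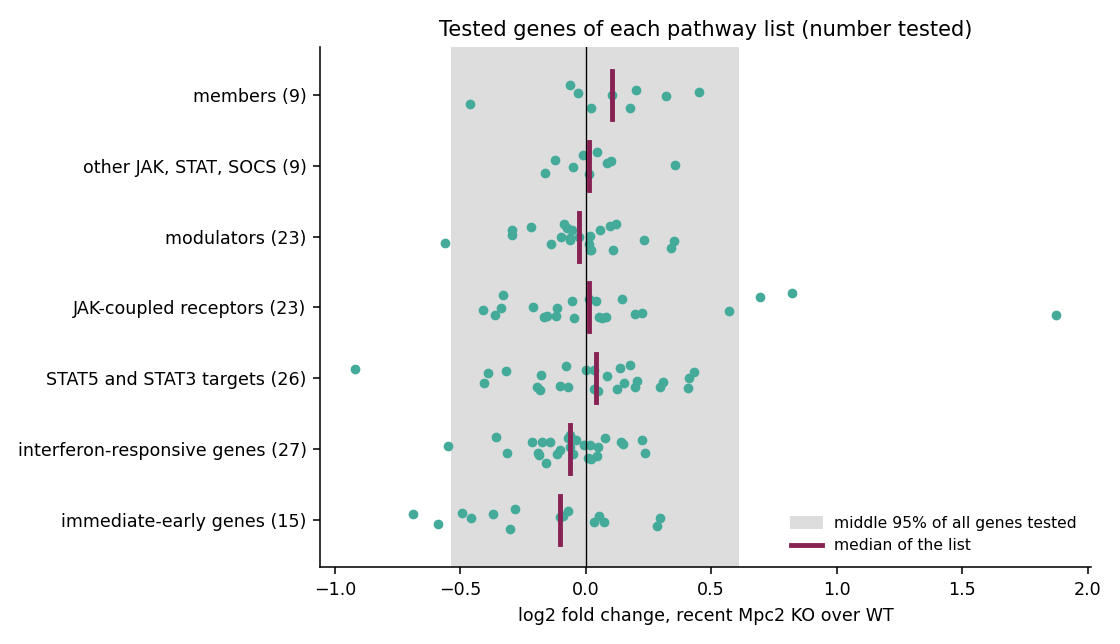
Log2 fold changes (recent Mpc2 KO over WT) of the tested genes of each list, one point a gene, with the median of the list as a bar and the middle 95% of all genes tested in grey. The medians lie between -0.10 and 0.10, and Il2rb is the point at 1.87.

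Markers of GMPs and of other cell types were read in the same samples. GMP markers were abundant in every sample, led by Mpo at 51593 to 69039 CPM in WT and 31826 to 52804 CPM in KO samples, and 15 of 15 were tested. Of them 0 were called and 10 had an unadjusted p under 0.05 (66.7%, beside 10.2% of all genes tested), all lower in KO GMPs. By direction, 12 had folds below 1 and 3 above 1. The 3 were Kit (log2 fold change 0.08, SE 0.09), Cd34 (0.25, SE 0.18) and Cd27 (0.22, SE 0.15), named after their values were seen. The 15 markers summed to 90512 to 127785 CPM in WT and to 54046 to 92424 CPM in KO samples. In that sum Kit, Cd34 and Cd27 weighed little, with Cd34 at 362 CPM at most. All 11 tested erythroid and megakaryocyte markers had a fold above 1, 8 of them with an unadjusted p under 0.05 (72.7%) and 0 called, with a median log2 fold change of 1.38. Mature neutrophil markers summed to 207 to 549 CPM in WT and 213 to 944 CPM in KO samples. Of 10 tested, 8 had a fold above 1, 6 had an unadjusted p under 0.05 (60%), all higher in KO GMPs, and 0 were called, with a median log2 fold change of 1.21. Macrophage markers summed to 96.7 to 117 CPM in WT and 105 to 134 CPM in KO samples. Most of that sum was Cd68, at 68.9 to 87.6 CPM in WT and 64.4 to 72.6 CPM in KO samples. Cd68 and Adgre1, named after their values were seen, had folds below 1, and the 7 other tested markers had folds above 1. Of 9 tested, 5 were higher and 1 lower at an unadjusted p under 0.05 (66.7%), and C1qa, C1qb and C1qc were called higher, beside 0.121% of all genes tested, with a median of 1.23. Dendritic and MHC class II markers summed to 54.2 to 76.9 CPM in WT and 76.7 to 108 CPM in KO samples. Of 6 tested, 3 were higher at an unadjusted p under 0.05 (50%) and 0 were called, with a median of 0.70. By direction, 5 had folds above 1 and 1 a fold below 1, at a log2 fold change of -0.66. Basophil, mast cell and eosinophil markers summed to 311 to 727 CPM and 391 to 604 CPM, and of 11 tested, 3 were higher and 3 lower at an unadjusted p under 0.05 (54.5%), 0 called, with a median of -0.14. Lymphoid markers summed to 1990 to 2786 CPM and 1729 to 2317 CPM, and of 3 tested, 1 had an unadjusted p under 0.05 (33.3%), Ighm, which was called lower, beside 0.210% of all genes tested. None of the markers was at 0 in all 10 samples. The part of these markers in the values of the JAK, STAT and SOCS genes was not tested.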

How the data were processed

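RNA from 5 WT and 5 recent Mpc2 KO samples was made into cDNA with the SMARTseq V4 kit, and paired-end reads were assigned by the authors with Salmon 1.5.1 to Gencode M27 transcripts. The authors deposited estimated counts per transcript, which are not normalized, and TPM, in which reads are divided by transcript length and scaled to an equal total. A further table, not used here, holds the authors' DESeq2 comparison (2.11.40.6 in the submitters' processing notes), with mean signal, log2 fold changes, a test score and p-values per gene. Salmon's estimated counts and TPM were summed per gene through GENCODE M21 (GRCm38), an older annotation, by identifiers without version: 137161 of 140789 transcripts matched (97.4%), and the rest, 0.348% to 0.390% of the reads of a sample, were left out.

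Estimated counts were rounded and entered into edgeR 4.0.16 under R 4.3.3, with limma 3.58.1 (quasi-likelihood test, TMM, filterByExpr at a minimum count of 10, condition as the only term, Benjamini-Hochberg adjustment over all 12381 genes or all 26185 transcripts). Single genes were also compared by an exact two-sided permutation test of mean CPM. The fits were tested on simulated data. Alternatives were other scalings (RLE, library size), filters (none, or a mean count of 50), a transcript length offset, a robust fit, the replicate number as a block, DESeq2 1.42.0, limma on log2(TPM + 1) and log2(TPM + 0.1) for a mean TPM of at least 1 or all genes, and leaving out each sample. Copies were sought with BLAST 2.17.0. Python 3.11.15 was used for the rest.

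No samples were identical, and chi-square per degree of freedom between replicates was 6.31 or more. The genes and lists were chosen with earlier results of these data known. Named genes are the 10 members, Mpc2, and of each list the called genes or otherwise the 3 with the smallest unadjusted p; others are marked as chosen after their values were seen, and the single results of some genes are not reported here. Sequences are from RefSeq.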

Additional observations from a re-analysis of the deposited data

Results flagged for a closer look

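Each value in this part stood apart from the 4 other samples of its group, by a gap to the nearest sample that took up most of the range of the group. Socs3 was at 2.10 CPM in WT sample 4, where the gap was 0.937 of the range. Xbp1 was at 248.5 CPM in the same WT sample, with a gap of 0.856 of the range. Ptpn6 was at 222.8 CPM in recent Mpc2 KO sample 2, above the other KO samples by 0.805 of the range. Klf6 was at 8.93 CPM in recent Mpc2 KO sample 1, below the other KO samples by 0.789 of the range. In all, 58 groups of 5 samples were looked at and 4 stood out, where chance gives about 2.9, since it singles out about 1 group in 20. No explanation of these values was tested.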

How the results depend on the processing

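None of the 10 genes was called under any of the 21 alternatives that gave it a value, and none of their transcripts under the 13 alternatives run for transcripts. Over 180 alternative fold changes of the 9 tested genes, 167 kept their direction and 13 turned it, none past the threshold. Without 1 sample each, Stat3 ranged from -0.025 to 0.086 (below 0 without WT sample 1 or KO sample 3 or 5), Tyk2 from -0.165 to 0.0086 (above 0 without KO sample 3) and Stat5b from -0.128 to 0.0499 (above 0 without KO sample 1 or 2). Library size alone gave 0.0098 for Tyk2 and 0.044 for Stat5b. Stat5b was at 0.018 in limma on log2(TPM + 1), with or without a filter, and at 0.017 on log2(TPM + 0.1). Cish turned to -0.176 with the length offset and to -0.071 in limma on log2(TPM + 1) without a filter. The filters on a mean count of 50 and on a mean TPM of 1 left no value for Socs1, Socs2 and Cish. Under the rest, Socs1 ranged from -0.64 to -0.17 and Socs2 from 0.20 to 0.67. The cause of these turns was not tested. The scaling moved the median of all genes to at most 0.0686.

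The count of 41 genes (15 higher, 26 lower) became 206 (110 and 96) of 27909 without a filter, where 2 listed genes were called, 156 (77 and 79) with DESeq2, 26 higher under library size alone, 16 lower in limma on log2(TPM + 1), 26 (13 lower) on log2(TPM + 0.1) and 12 (5 and 7) in limma on log2(TPM + 1) without a filter. Leaving out 1 sample gave 25 to 91 calls, 6 to 36 higher and 18 to 55 lower, with 91 without KO sample 2 and 25 without KO sample 3 or 4. Mpc2 stayed at -1.60 to -1.31 without 1 sample, and missed the threshold without KO sample 1 (adjusted p = 0.05002). Its call was lost at -1.40 (length offset), -1.46 (robust fit), -1.35 (limma on log2(TPM + 1), with or without a filter) and -1.38 (log2(TPM + 0.1)). The replicate block gave 20 calls (4 and 16), and Mpc2 at -1.46 missed the threshold (adjusted p = 0.0577). The replicate numbers do not pair the samples: deviations of same-numbered samples correlated at -0.177 to 0.0576, and 0 of 5 WT samples correlated best with its own number. Depth limits the feedback genes most, with 4 to 54 reads a sample.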
